A study of Mus musculus with 40 samples.

Results

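The genes described here encode subunits of the mitochondrial respiratory chain, together with a few genes that share their name prefixes. They were chosen by symbol: every probe whose gene symbol starts with Nduf, Sdh and a letter a to d, Uqcr, Cox4, Cox5, Cox6, Cox7, Cox8 or Atp5. The rule found 40 genes on 48 probes, of 10842 named genes and 23574 probes on the array. Of the 40, 13 encode subunits of complex I, 13 of complex IV and 9 of complex V, so that 35 are subunits. The other 5 are no subunits: Ndufaf1, Ndufaf2 and Ndufaf3 are assembly factors of complex I, Ndufa4l2 is a paralogue of Ndufa4, and Cox7a2l encodes a factor that links complexes III and IV. The rule matched 0 genes of complexes II and III among the named probes, and these complexes were not analysed here. The choice of genes used symbols alone, while for a gene with several probes the probe of largest SD over the 40 livers was taken.

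The respiratory chain sits in the inner mitochondrial membrane. Complex I takes electrons from NADH, complex IV passes them to oxygen, and both pump protons, while complex V, the ATP synthase, lets the protons flow back and makes ATP. Most subunits are encoded in the nucleus, and the liver, which is rich in mitochondria, uses the chain to burn fatty acids during a fast. Several subunits of complex IV exist as one isoform in liver and most tissues and another in heart and skeletal muscle.

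The livers came from 40 C57BL/6J mice, an inbred strain. Of the 8 groups, each with 5 mice, one held females and one held males with their gonads in place. The others held ovariectomized (ovx) females or castrated males, each carrying a pellet of placebo, of estradiol (E2) or of dihydrotestosterone (DHT). Per the labels, gonads were removed at 8 weeks, pellets went in at 12 weeks and mice were killed at 14 weeks after a fast of 12 h. All were on a chow with 4% fat. Plasma reached 300 pg/ml from an E2 pellet of 0.5 mg and 1 to 2 ng/ml from a DHT pellet of 5 mg, both made to last 21 days. Whether intact mice carried a pellet is not stated. The labels name no batch, slide or date.

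Each liver was labelled with Cy5 and read on its own array against a pool of mouse liver labelled with Cy3, so every value is a ratio of 1 liver to that pool. Values are on the log2 scale, where a rise of 1 doubles the ratio. Because each probe is scaled to the pool, levels of different genes cannot be compared, and hepatocyte markers cannot show how pure the tissue was. A difference passed where limma, a linear model fitted to all probes, gave a Benjamini-Hochberg adjusted p (q) under 0.05 over the 23574 probes of that contrast. Errors of differences are standard errors (SE), each group had 5 livers from 5 mice, and p-values measure the spread between these mice. The Y-linked gene Eif2s3y was at most -3.82 in the 20 females and at least 0.35 in the males, so all livers matched their labelled sex. In whole liver, fewer cells of a type and less RNA per cell cannot be told apart.

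Livers within the estradiol groups differed from each other before any respiratory chain gene is considered. Cyp7b1, a hydroxylase with far higher expression in male liver, was at -2.57, -2.92, 1.35, 0.84 and 1.31 in ovx E2 animals 33, 34, 35, 36 and 37. In castrated E2 animals 41, 43, 44, 45 and 46 it was at -1.50, 1.72, 1.65, -1.34 and 0.92. Animals 35, 36 and 37, and 43, 44 and 46, thus lay well above their group mates. Such a spread of Cyp7b1 was not limited to the E2 groups. Intact male 11 was at -0.66, against 1.55 to 2.02 in the other intact males. Castrated DHT livers ran from -2.33 to 0.77. The median of 8 measured macrophage markers (Adgre1, Clec4f, Cd68, Csf1r, Marco, Vsig4, Timd4 and Cd5l) was -0.11, -0.32, 1.28, 1.94 and 0.53 in ovx E2 animals 33 to 37. It was -0.41, 0.84, 0.09, -0.24 and -0.15 in the castrated E2 animals in the same order as above, and lay between -0.89 and 0.08 in the other 6 groups.

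Promoter sequences were taken for the members from RefSeq (mouse build GRCm38.p6), and 33 of the 40 had at least 1 in the table, 35 promoters in all. Each holds 300 bases, 250 before and 50 after the gene's start. Shown first are the 250 bases before the start of Atp5g1 and Cox7a2, which had the smallest F test q among the members, and neither holds any of the 5 motifs searched. They are followed by Ndufaf1 and Ndufa11, which passed in a contrast in males, and by Cox6a1, a liver-type subunit whose level varied strongly between livers. Capitals mark the motifs found, lower case the rest, and each runs 5′ to 3′ on the gene's strand.
Atp5g1, chr11:96075632-96075881, minus strand: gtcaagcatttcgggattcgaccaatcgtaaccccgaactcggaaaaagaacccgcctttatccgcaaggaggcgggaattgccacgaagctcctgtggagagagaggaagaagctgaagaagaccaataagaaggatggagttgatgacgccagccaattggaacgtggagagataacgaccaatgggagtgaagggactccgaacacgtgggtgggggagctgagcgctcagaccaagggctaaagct
Cox7a2, chr9:79759854-79760103, minus strand: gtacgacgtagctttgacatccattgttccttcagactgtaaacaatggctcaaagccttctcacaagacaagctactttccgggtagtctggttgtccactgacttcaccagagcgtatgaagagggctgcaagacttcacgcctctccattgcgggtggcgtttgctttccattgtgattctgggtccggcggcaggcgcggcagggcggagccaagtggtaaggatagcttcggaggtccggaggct
Ndufaf1, chr2:119662835-119663084, minus strand: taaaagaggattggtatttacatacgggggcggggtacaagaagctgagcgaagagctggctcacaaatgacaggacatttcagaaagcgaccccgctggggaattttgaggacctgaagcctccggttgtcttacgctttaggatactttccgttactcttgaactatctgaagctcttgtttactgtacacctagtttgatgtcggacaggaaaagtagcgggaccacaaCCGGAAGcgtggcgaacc
Ndufa11, chr17:56717512-56717761, plus strand: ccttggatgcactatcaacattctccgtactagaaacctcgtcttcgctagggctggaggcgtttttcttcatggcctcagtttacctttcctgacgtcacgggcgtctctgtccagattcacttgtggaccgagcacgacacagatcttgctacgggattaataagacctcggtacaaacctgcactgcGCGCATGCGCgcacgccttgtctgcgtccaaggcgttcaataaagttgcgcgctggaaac
Cox6a1, chr5:115348959-115349208, minus strand: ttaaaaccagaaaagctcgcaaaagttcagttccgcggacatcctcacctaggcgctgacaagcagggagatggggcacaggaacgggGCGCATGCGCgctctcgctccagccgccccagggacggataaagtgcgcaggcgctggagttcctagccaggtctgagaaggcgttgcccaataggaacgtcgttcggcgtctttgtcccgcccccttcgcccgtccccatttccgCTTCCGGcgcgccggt
The capitals in Ndufa11 and the first in Cox6a1 are the palindromic consensus of nuclear respiratory factor 1 (NRF1), and the capitals in Ndufaf1 and the second in Cox6a1 are CCGGAAG, read on either strand, a match to the ETS factor GABPA. Both factors are known activators of respiratory chain genes.

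Over whole 300-base promoters and both strands, the NRF1 letters were in 3 of 35 member promoters (8.57%), those of Atp5k, Cox6a1 and Ndufa11, against 0.971% of all 32851 promoters in the table. The GABPA letters CCGGAAG were in 10 (28.6%) against 8.86%. The YY1 letters AAGATGGC were in 4 (11.4%), those of Atp5j, Atp5j2, Ndufs4 and Ndufs6, against 2.75%. The estrogen-related receptor letters TCAAGGTCA were in 0 member promoters against 0.423% of all, and the full palindromic estrogen response element was in 0 against 0.07%. These are matches of letters in a window, with no test, and the absence of a match says only that these letters are not in it.

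In the F test for any difference among the 8 groups, the share of the 40 genes that passed was near or below that of all probes. Which it was depended on the threshold and setting. Counts in pairwise contrasts are given below, and some exceeded the share over all probes. At q under 0.05 in the F test, 4 of the 40 passed, against 17.2% of all probes. They were Cox7a2 (q = 0.00577), the liver-type isoform of subunit 7a of complex IV, Atp5g1 (q = 0.0105), one of the genes of the membrane ring subunit c of complex V, and Ndufa2 (q = 0.0361) and Ndufs6 (q = 0.0409), accessory subunits of the NADH-oxidising arm of complex I. At an unadjusted p under 0.05 the F test gave 12 of the 40, against 29.2% of all probes. The count was 2 without castrated placebo animal 25 or without ovx E2 animal 35, 36 or 37, and 7 without ovx E2 animal 34. With arrays weighted by their quality it was 18, and 46.9% of all probes then passed.

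The SD over the livers differed between the complexes. The median SD of the members over the 40 livers was 0.18, against 0.16 over all probes. These medians are not on equal terms, since for members with several probes the probe of largest SD was taken. The median SD was 0.15 in complex I, 0.19 in complex IV, 0.23 in complex V and 0.13 among the 5 that are no subunits. The least variable gene of complex I was Ndufa11 (SD 0.11) and the most variable Ndufs1 (SD 0.31), an iron-sulfur core subunit. In complex IV they were Cox8b (SD 0.14), a muscle-type isoform, and Cox7b (SD 0.31), an X-linked subunit. In complex V they were Atp5g1 (SD 0.18) and Atp5c1 (SD 0.30), the gamma subunit. Ndufa4l2 had the smallest SD of all 40, 0.072.

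**Figure D1:**
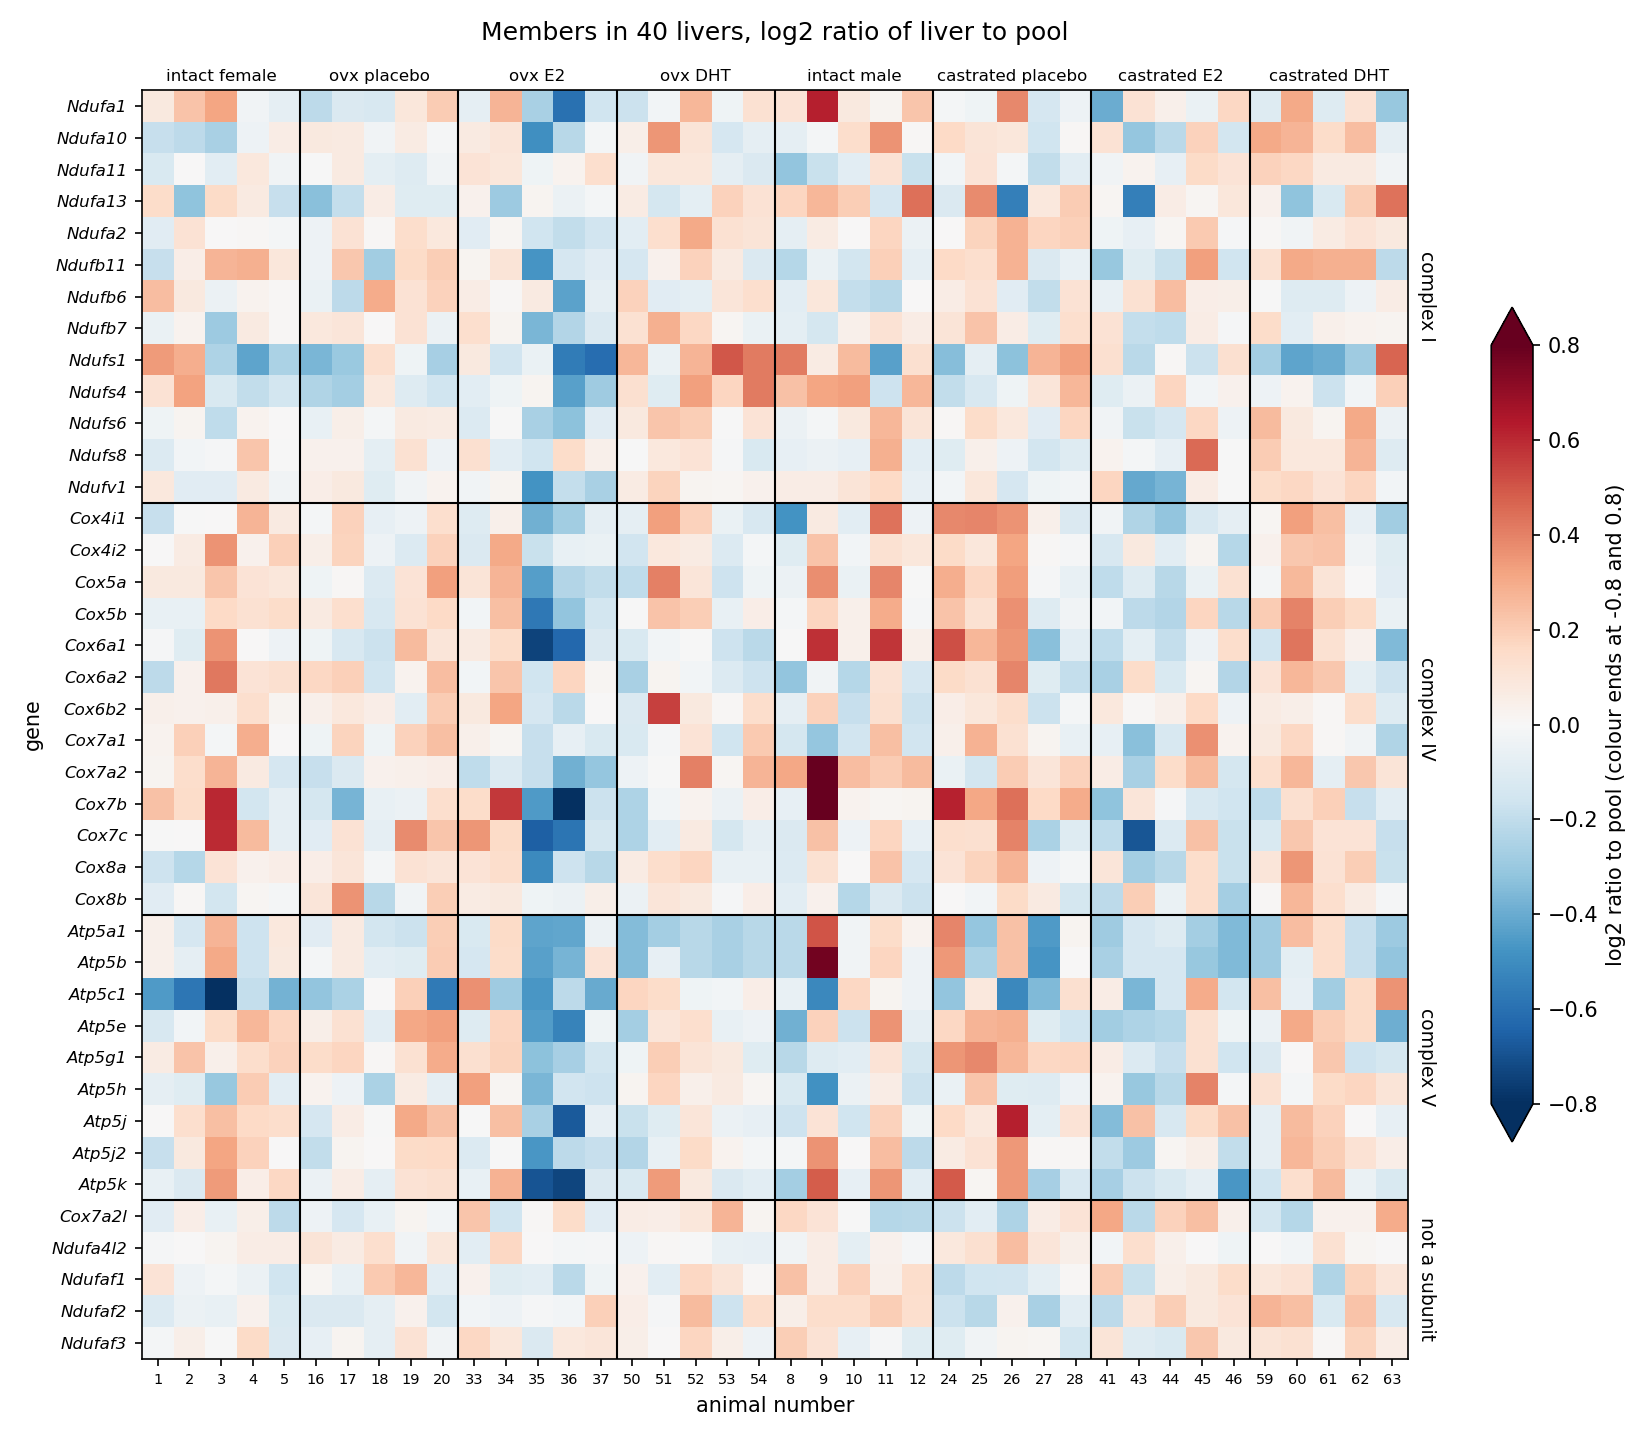
Log2 ratio to the pool of each of the 40 genes (rows, by complex) in each of the 40 livers (columns, by group and animal number), with colour from blue at -0.8 or below to red at 0.8 or above. Columns 35 and 36 of the ovx E2 group are blue for 35 of the 40 genes each, and single livers such as intact male 9 stand out for a few genes.

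Castration gave the smallest q of any member in a pairwise contrast. Atp5g1 rose after castration by 0.36 ± 0.09 (SE, limma q = 0.00462), a level 28.1% higher. In intact males 8 to 12 its log2 ratio was -0.22, -0.10, -0.09, 0.11 and -0.14, and in castrated placebo males 24 to 28 it was 0.36, 0.39, 0.27, 0.16 and 0.17. Every castrated placebo male lay above every intact male. The call held without any single animal, with q from 0.00156 to 0.0215. It also held under all 10 alternative settings tried, with q from 3.39e-05 to 0.0164. Not all of these could change it. Leaving out an animal of another group keeps the difference as it was. Atp5g1 has 1 probe, so settings that average or choose among a gene's probes left its values unchanged. Among the members 4 of 40 passed in this contrast, against 12.1% of all probes. Of them 1 was higher (5.20% of all probes) and 3 lower (6.92%), and 3.55% of all probes were higher with groups that did not overlap. The count was 2 without animal 8, 10, 24 or 27 and 1 without animal 25, and it was 1 with quantile normalization (7.64% of all probes) and 11 with array weights (32.9%).

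Of 7 measured lymphocyte markers (of 9 listed), 2 were higher after castration. Their median ran from -0.26 to -0.04 in intact males and from 0.06 to 0.16 in castrated placebo males, with no overlap. Those that passed were Cd2 (0.62 ± 0.16) and Cd3d (0.24 ± 0.07), with a median difference over the 7 of 0.24. Their part in the castration results was not tested.

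In castrated males Atp5g1 fell with DHT by 0.31 ± 0.09 (q = 0.0382), and castrated DHT animals 59 to 63 were at -0.11, 0.00, 0.21, -0.17 and -0.14. Of these, animal 61 lay among the castrated placebo values and the other 4 below all of them. Atp5g1 was the only one of the 40 members to pass for DHT in males, against 3.47% of all probes and 1.57% that were lower. The call was lost without castrated placebo animal 24 (q = 0.0994), 25 (0.1), 26 (0.0567) or 27 (0.0508), and without castrated DHT animal 59 (0.116), 60 (0.0639), 62 (0.131) or 63 (0.0722). It was also lost with both groups of the contrast alone in the fit (q = 0.1). Without animal 61, 2 members passed, and with array weights 6, against 16.1% of all probes. The Atp5g1 difference with E2 in castrated males was -0.32 ± 0.09, which missed the threshold (q = 0.0543), with values of 0.06, -0.11, -0.18, 0.12 and -0.16 in animals 41, 43, 44, 45 and 46. All 5 lay below every castrated placebo male. The comparisons with castration, DHT and E2 in males share the 5 castrated placebo livers, in which Atp5g1 was highest.

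In females Atp5g1 stood at 0.07, 0.23, 0.04, 0.14 and 0.18 in intact animals 1 to 5 and at 0.14, 0.17, 0.01, 0.12 and 0.30 in ovx placebo animals 16 to 20. These groups overlapped throughout, and Atp5g1 differed by 0.02 ± 0.09 after ovariectomy. In ovx E2 animals 33 to 37 it was 0.13, 0.18, -0.33, -0.27 and -0.14, and in ovx DHT animals 50 to 54 it was -0.03, 0.20, 0.10, 0.08 and -0.10. Ranked by group mean, Atp5g1 was highest in castrated placebo males (0.27 ± 0.10, SD), then ovx placebo females (0.15 ± 0.10), intact females (0.13 ± 0.08) and ovx DHT females (0.05 ± 0.12). Castrated DHT (-0.04 ± 0.16), castrated E2 (-0.05 ± 0.14), ovx E2 (-0.09 ± 0.23) and intact male livers (-0.09 ± 0.12) followed. Castrated placebo and ovx placebo livers, first and second in this order, lay further apart than either SD, and each other pair of neighbours lay closer than the larger of their SDs. Between intact females and intact males Atp5g1 differed by 0.22 ± 0.09, which did not pass (q = 0.117).

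The 3 members that fell after castration were a pair of assembly factors of complex I and a subunit of complex IV. Ndufaf2 fell by 0.27 ± 0.08 (q = 0.0193), from 0.05, 0.14, 0.14, 0.20 and 0.13 in intact males 8 to 12 to -0.17, -0.22, 0.03, -0.26 and -0.09 in castrated placebo males 24 to 28. The groups did not overlap, and the call was lost without animal 25 (q = 0.0562) or 27 (q = 0.0549). Ndufaf1 fell by 0.25 ± 0.08 (q = 0.0265), from 0.24, 0.06, 0.18, 0.04 and 0.14 to -0.21, -0.16, -0.15, -0.08 and 0.01. These groups did not overlap either, and of all probes 4.70% were lower after castration with groups that did not overlap. The Ndufaf1 call was lost without animal 8 (q = 0.0851), 10 (0.0651), 12 (0.0515), 24 (0.0737), 25 (0.0617) or 26 (0.0562). Both were also lost with quantile normalization between arrays, with q = 0.0529 for Ndufaf2 and q = 0.106 for Ndufaf1.

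Neither assembly factor passed with a hormone pellet. In castrated males the difference of Ndufaf2 was 0.24 ± 0.08 with DHT (q = 0.0913) and 0.20 ± 0.08 with E2 (q = 0.254), and that of Ndufaf1 was 0.17 ± 0.08 with DHT (q = 0.27) and 0.18 ± 0.08 with E2 (q = 0.293). The third assembly factor, Ndufaf3, ranged from -0.14 to 0.21 over the 40 livers and passed in none of the 17 contrasts. Cox7a2l, which ranged from -0.25 to 0.31, and Ndufa4l2, which ranged from -0.09 to 0.25, passed in none either. The response of Ndufaf1 to gonad removal was 0.35 ± 0.11 higher in females than in males, which missed the threshold (q = 0.0573).

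Cox7a2 was lower after castration by 0.32 ± 0.11 (q = 0.0479), a call close to the threshold. Intact males 8 to 12 were at 0.31, 0.85, 0.25, 0.20 and 0.25, and castrated placebo males 24 to 28 at -0.06, -0.15, 0.20, 0.09 and 0.19. Animal 9 lay far above its group mates, and the groups overlapped only through animal 26, just above the lowest intact male. Without animal 9 the difference was -0.20 (q = 0.172). The call was also lost without animal 8 (q = 0.0687), 10 (0.0503), 24 (0.114), 25 (0.144) or 27 (0.0612), and, with q from 0.0501 to 0.0534, without any of animals 1, 2, 4, 17, 18, 19, 20, 33, 35, 37, 41, 51, 53, 54, 59, 62 and 63 of other groups. Quantile normalization (q = 0.129), a fit of both groups alone (q = 0.169) and the interquartile range of each array as a covariate (q = 0.0869) ended it too.

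**Figure D2:**
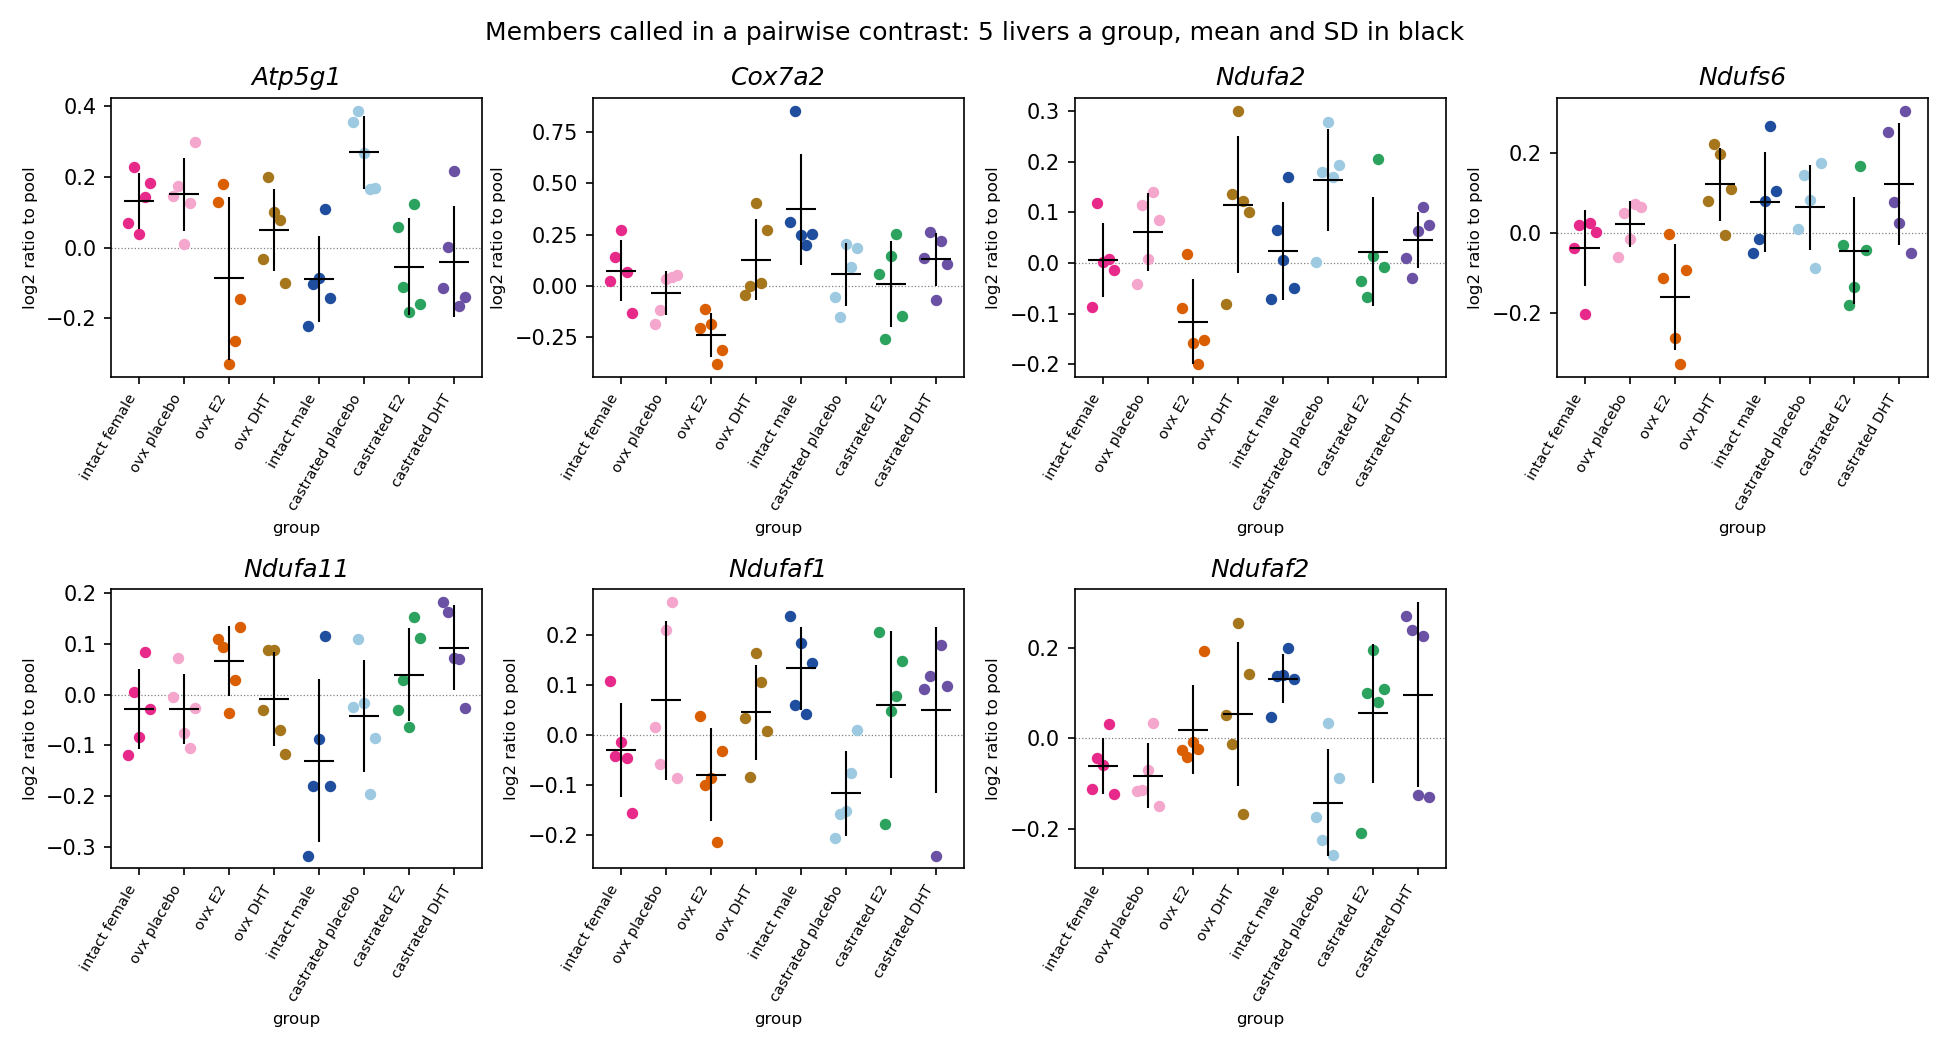
Log2 ratio to the pool of the 7 genes that passed in a pairwise contrast, by group, with each of the 5 livers of a group as a point and the group mean with its SD in black. For Atp5g1 all 5 castrated placebo livers lie between 0.16 and 0.39, above all intact males, and for Cox7a2 intact male 9 lies alone at 0.85.

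Ndufa11, a membrane accessory subunit of complex I, was the only member that passed between castrated DHT and intact males, where 6.32% of all probes passed and 2.49% were higher. It was higher with DHT by 0.22 ± 0.06 (q = 0.0316). Intact males 8 to 12 were at -0.32, -0.18, -0.09, 0.12 and -0.18, and castrated DHT males 59 to 63 at 0.18, 0.16, 0.07, 0.07 and -0.03. The groups overlapped through intact male 11, which lay above all but 2 of the DHT livers. The call was lost without animal 8 (q = 0.142), 9 (0.0693), 12 (0.0789), 59 (0.0841), 60 (0.0877) or 61 (0.058). It was lost as well with quantile normalization (q = 0.121), with both groups alone in the fit (q = 0.203) and with the interquartile range as a covariate (q = 0.0634).

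With estradiol the differences of complex IV and V genes were mostly below 0, by small amounts that did not pass. In ovx females 0 of the 40 members passed for E2 against placebo in limma, where 0.632% of all probes did. At an unadjusted p under 0.05, 7 were lower and 0 higher, against 5.79% and 4.99% of all probes. The difference was below 0 for 35 of the 40 members, against 54.4% of all probes: all 13 of complex IV, all 9 of complex V, 11 of 13 of complex I and 2 of the 5 that are no subunits. The median difference was -0.15 over the 40, -0.14 in complex I, -0.17 in complex IV and -0.22 in complex V, and -0.01 over all probes. No test was made of these medians, since the members are not replicates.

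The lowest differences in females were those of Atp5e, the epsilon subunit of complex V (-0.33 ± 0.14, q = 0.317), Atp5k, its membrane subunit e (-0.30 ± 0.16, q = 0.514), and Cox7c of complex IV (-0.29 ± 0.16, q = 0.561). The smallest q was that of Ndufa2 (-0.18 ± 0.06, q = 0.2). The highest differences were those of Ndufaf2 (0.10 ± 0.08), Ndufa11 (0.09 ± 0.06) and Ndufa13 (0.07 ± 0.14), none of which passed. A second Atp5k probe gave -0.16 ± 0.14.

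In castrated males, too, 0 of the 40 members passed for E2 against placebo in limma, against 1.18% of all probes. At an unadjusted p under 0.05, 8 were lower and 2 higher, against 6.97% and 6.72% of all probes. The difference was above 0 for 11 of the 40, against 43.0% of all probes, and below 0 for 29: 12 of 13 in complex IV, 8 of 9 in complex V, 8 of 13 in complex I and 1 of the 5 that are no subunits. The median difference was -0.11 over the 40, -0.07 in complex I, -0.19 in complex IV, -0.21 in complex V and 0.18 among those that are no subunits, against -0.02 over all probes. Centring each array on its median, or leaving out animal 11, 20, 28, 33, 34, 35, 36, 41, 45 or 61, let 1 member pass.

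Cox7b had the lowest difference in males, -0.47 ± 0.17 (q = 0.208). Castrated placebo males 24 to 28 were at 0.61, 0.31, 0.44, 0.16 and 0.30, and castrated E2 males 41, 43, 44, 45 and 46 at -0.32, 0.10, -0.01, -0.13 and -0.16. The groups did not overlap, as for Atp5g1, and 1.36% of all probes were lower in this contrast with groups that did not overlap. In females the Cox7b difference was -0.05 ± 0.17, and the difference between the sexes, 0.42 ± 0.25, did not pass (q = 0.993). Cox4i1, the common isoform of subunit 4 of complex IV, had a difference of -0.37 ± 0.13 in males (q = 0.164) and of -0.20 ± 0.13 in females.

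The estradiol contrasts in females and males share no animal. The difference was below 0 in both for 28 of the 40 members (70.0%), against 37.8% of all probes, and above 0 in both for 4. By complex these 28 were 12 of 13 in complex IV, 8 of 9 in complex V, 7 of 13 in complex I and 1 of the 5 that are no subunits. With an unadjusted p under 0.05 in both sexes, 4 members were lower, against 1.95% of all probes, and 0 higher. The 4 were Atp5g1, Atp5j2, Cox5b and Ndufa2. Atp5j2, a membrane subunit of complex V, differed by -0.22 ± 0.10 in females and -0.23 ± 0.10 in males. Cox5b, a zinc-binding subunit of complex IV, differed by -0.23 ± 0.11 and -0.22 ± 0.11. The difference between the sexes in the effect of E2 passed for 0 of the 40 members and for 0 of all probes in limma, with 1 member and 4.13% of all probes at an unadjusted p under 0.05.

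**Figure D3:**
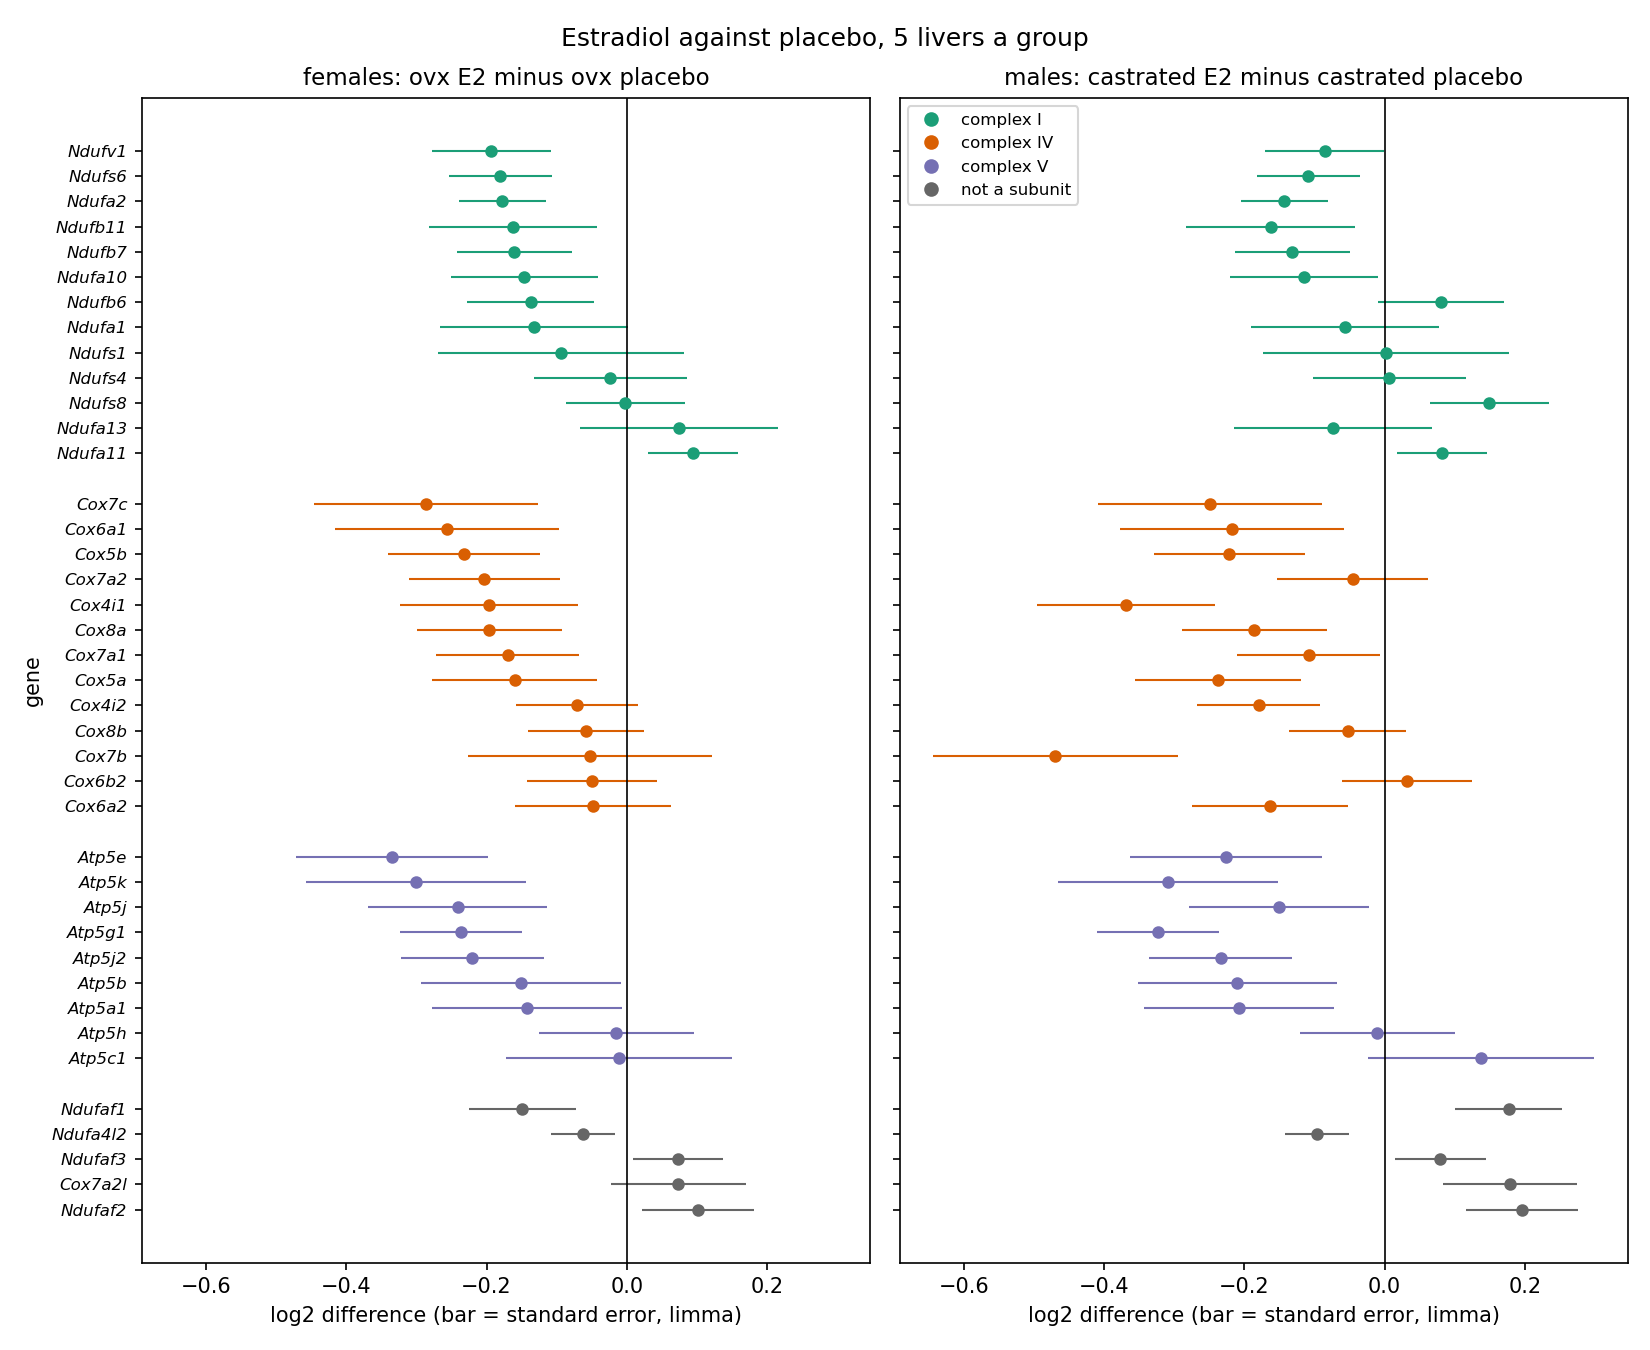
Log2 difference between estradiol and placebo pellets for each of the 40 genes in ovx females (left) and castrated males (right), with the SE from limma as bars and the genes coloured by complex. All 22 genes of complexes IV and V lie below 0 in females, and Cox7b has the lowest point in males, at -0.47, while none of the 40 genes passed in either sex.

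Livers of the ovx E2 group differed among themselves in these genes. The median over the 40 members was 0.04, 0.09, -0.26, -0.22 and -0.09 in ovx E2 animals 33 to 37. The median over all probes ranked these livers alike, within a smaller range, at 0.0082, 0.0292, -0.0448, -0.0241 and -0.0036. Over the 40 livers both medians were lowest in animal 35 and highest in castrated placebo animal 26 (0.22 for the members and 0.0363 for all probes). The part of such array-wide shifts in the members' medians was not tested. Animals 35 and 36 had 35 of 40 members below 0 and animal 37 had 32, while animal 33 had 18 and animal 34 had 11. Ovx placebo livers 16 to 20 had medians of -0.04, 0.06, -0.06, 0.08 and 0.11, so that animals 33 and 34 lay within the placebo range and animals 35, 36 and 37 below it. Cox6a1, whose promoter is printed above, shows the split within the group: 0.07, 0.14, -0.74, -0.63 and -0.11 in animals 33 to 37, against -0.04, -0.13, -0.17, 0.25 and 0.10 in the placebo group. Atp5k was at -0.06, 0.28, -0.69, -0.73 and -0.11, against -0.05, 0.06, -0.07, 0.11 and 0.13.

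In castrated E2 livers 41, 43, 44, 45 and 46 the median over the members was -0.03, -0.13, -0.11, 0.10 and -0.04. Castrated placebo livers 24 to 28 were at 0.06, 0.11, 0.22, -0.08 and -0.01. The groups overlapped, with animal 45 above 3 of the placebo livers. In the 6 groups without estradiol the medians ran from -0.08 to 0.22, and in intact males they were -0.07, 0.11, -0.03, 0.15 and -0.04.

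Over all 40 livers the lowest medians of the members, in ovx E2 animals 35 and 36, were in the livers with the highest macrophage marker medians, 1.28 and 1.94. For E2 against placebo in females 0 of the 8 markers passed and 7 had an unadjusted p under 0.05, with a median difference of 0.88. Cd68 was the exception at -0.05 ± 0.08. Of 5 erythroid markers 0 passed and 4 had an unadjusted p under 0.05, with a median difference of 0.46. With the macrophage marker median as a covariate, an alternative added after seeing the data, the median difference of the members in females went from -0.15 to 0.00264, and that in males from -0.11 to -0.06. Without animal 35 the median in females was -0.09, without 36 it was -0.10, without 37 it was -0.16, without 33 it was -0.18, and without 34 it was -0.20 with 1 member that passed. In males it was -0.10 without animal 43 or 44, -0.12 without 46, -0.11 without 41 and -0.17 without 45. Hepatocyte marker medians (6 genes) were -0.08, -0.015, -0.20, -0.26 and -0.01 in ovx E2 animals 33 to 37. The macrophage marker median was itself highest in E2 livers 35 and 36, so as a covariate it cannot separate macrophages from other traits of those livers. The part of any cell type in these values was not tested.

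**Figure D4:**
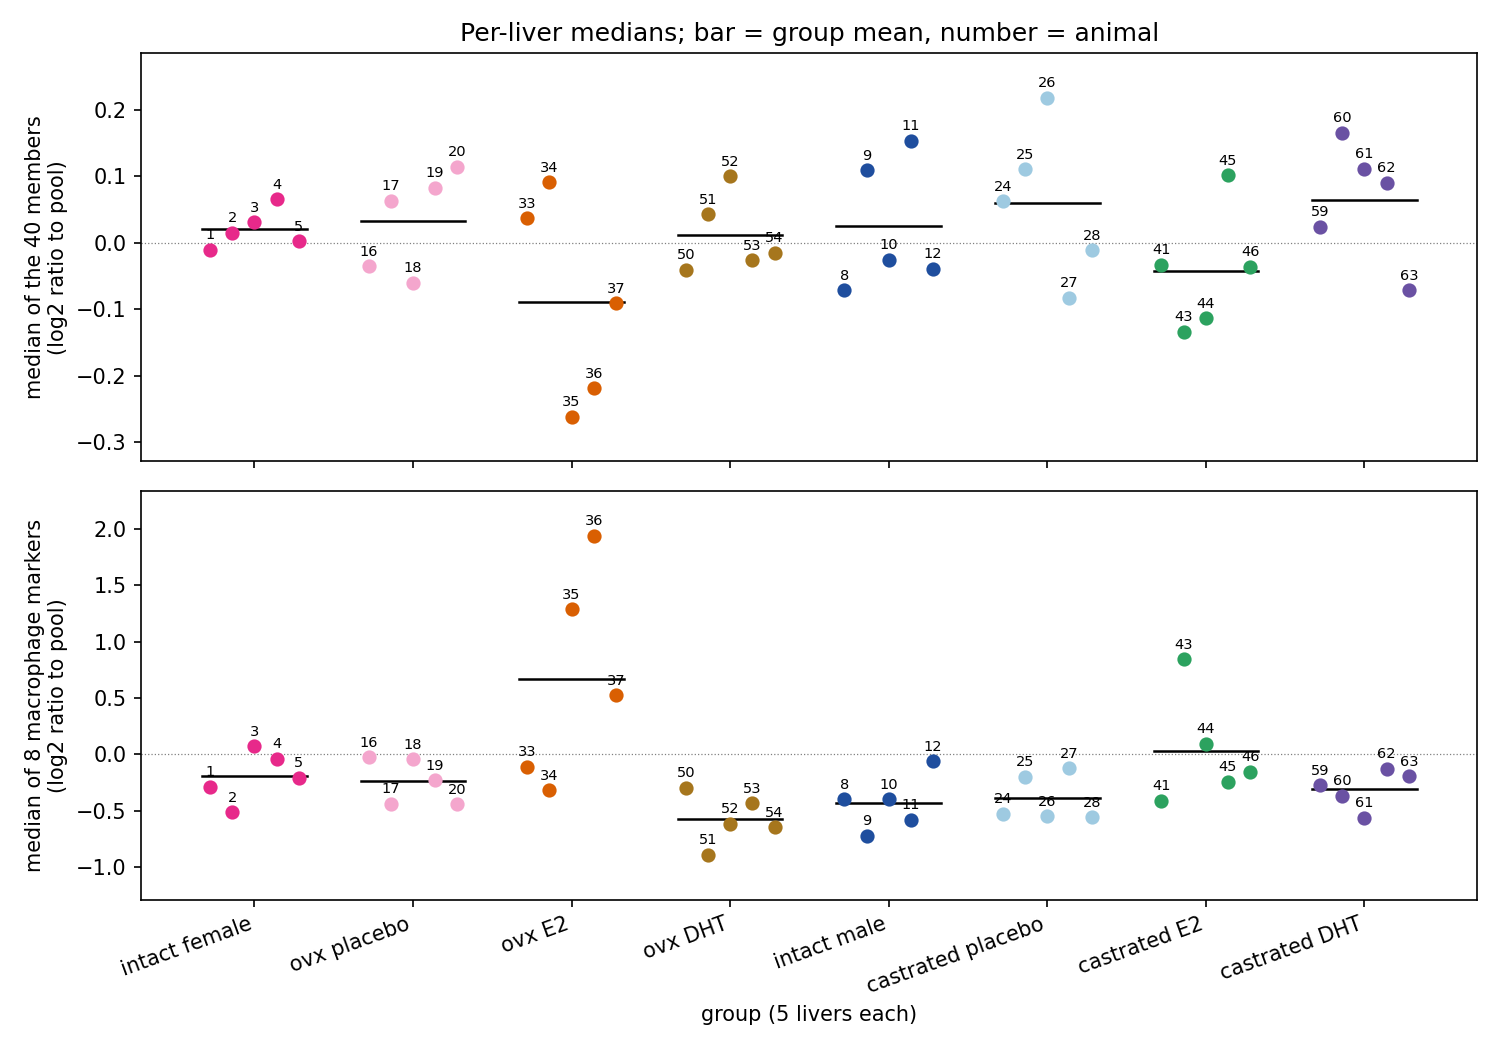
Median over the 40 members (top) and over 8 macrophage markers (bottom) of the log2 ratio to the pool in each of the 40 livers, by group, with animal numbers and a bar at the group mean. Ovx E2 animals 35 and 36 are the lowest in the top panel, at -0.26 and -0.22, and the highest in the bottom one, at 1.28 and 1.94.

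Set against DHT instead of placebo, estradiol in females gave 3 members that passed, all lower, where 3.79% of all probes passed and 1.59% were lower. The difference was below 0 for 32 of the 40, against 50.4% of all probes. Ndufs6 was lower by 0.28 ± 0.07 (q = 0.0239). Ovx E2 animals 33 to 37 were at -0.11, 0.00, -0.26, -0.33 and -0.09, and ovx DHT animals 50 to 54 at 0.08, 0.22, 0.20, 0.00 and 0.11. The groups met near 0, at animals 34 and 53. Ndufa2 was lower by 0.23 ± 0.06 (q = 0.0273), with -0.09, 0.02, -0.16, -0.20 and -0.15 against -0.08, 0.14, 0.30, 0.12 and 0.10. Only DHT animal 50 lay within the E2 range.

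Cox7a2 was lower with E2 than with DHT by 0.37 ± 0.11 (q = 0.0475), with -0.20, -0.11, -0.18, -0.38 and -0.31 in the E2 livers and -0.04, 0.00, 0.40, 0.01 and 0.27 in the DHT livers. Here the groups did not overlap, and unlike Cox6a1 or Atp5k, Cox7a2 was below 0 in all 5 E2 livers. Of all probes, 1.85% were lower in this contrast with groups that did not overlap.

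Each of these calls depended on single livers. The number of members that passed was 0 without animal 35, 36, 52 or 54, 1 without 37 or 51, and 6 without 34. The Ndufs6 call was lost without animal 35 (q = 0.0749), 36 (0.131), 51 (0.0735), 52 (0.0704) or 54 (0.0517), and the Ndufa2 call without 35 (0.0685), 36 (0.118), 37 (0.0763), 51 (0.0601), 52 (0.118) or 54 (0.0544). The Cox7a2 call was lost without animal 33 (0.0546), 35 (0.0711), 36 (0.181), 37 (0.121), 51 (0.0519), 52 (0.174) or 54 (0.135). It was lost too, with q from 0.0505 to 0.0537, without any of animals 1, 2, 4, 8, 10, 12, 17, 18, 19, 20, 24, 27, 59 and 62 of other groups. A fit of both groups alone ended all 3 calls, with q from 0.0989 to 0.169. The interquartile range as a covariate ended those of Ndufs6 (q = 0.0649) and Ndufa2 (q = 0.0503), and centring each array that of Cox7a2 (q = 0.0517). Of the 8 macrophage markers 7 were higher with E2 than with DHT and passed, with a median difference of 1.19, and with their median as a covariate 0 members passed and the median of the members went from -0.12 to 0.07. That median was -0.08 without animal 35, -0.09 without 36 and -0.20 without 34.

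In castrated males the same comparison of E2 with DHT gave 0 members that passed in limma, against 0.708% of all probes, with 5 lower, against 6.28% of all probes, and 0 higher at an unadjusted p under 0.05. The lowest were Cox5b (-0.28 ± 0.11, q = 0.248), Ndufa10 (-0.25 ± 0.11, q = 0.3) and Ndufb11 (-0.24 ± 0.12, q = 0.406). The difference was below 0 for 33 of the 40, against 54.8% of all probes, with a median of -0.105. This comparison and that with placebo share the castrated E2 livers.

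DHT in ovx females gave 0 members that passed in limma, against 1.15% of all probes, with 2 higher and 1 lower at an unadjusted p under 0.05, against 6.30% and 5.04%. The highest were a pair of genes of the electron-taking arm of complex I, Ndufs1 (0.44 ± 0.18, q = 0.285) and Ndufs4 (0.33 ± 0.11, q = 0.162), and the lowest were the alpha and beta subunits of complex V, Atp5a1 (-0.24 ± 0.14, q = 0.534) and Atp5b (-0.24 ± 0.14, q = 0.551). Atp5a1 was at -0.35, -0.27, -0.22, -0.26 and -0.22 in ovx DHT animals 50 to 54 and at -0.09, 0.07, -0.14, -0.17 and 0.20 in ovx placebo animals 16 to 20. These groups did not overlap, as was so for 2.58% of all probes that were lower. The Atp5b probe held the same value as Atp5a1 in animals 50, 52 and 53, so their differences may not be separate readings. The median over the members was 0.00 with DHT in females and 0.00 in males, but the complexes differed. In females it was 0.06 in complex I, -0.04 in complex IV and -0.10 in complex V. There 3 of 13, 8 of 13 and 7 of 9 genes were below 0, against 54.6% of all probes. In males the medians were 0.04, -0.04 and -0.05, with 6 of 13, 8 of 13 and 6 of 9 below 0, against 51.1%. No test was made of these medians.

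Between intact females and intact males 0 members passed in limma, although 8.69% of all probes did. At an unadjusted p under 0.05, 1 member was higher and 4 lower in females, against 10.9% and 11.0% of all probes. The lowest q was that of Cox7a2, whose difference was -0.30 ± 0.11 (q = 0.0814), with values of 0.02, 0.14, 0.27, 0.07 and -0.13 in females 1 to 5 against the male values given above. They overlapped through female 3. The Ndufaf2 difference was -0.19 ± 0.08 (q = 0.138), with -0.11, -0.04, -0.06, 0.03 and -0.12 in females 1 to 5. No intact female reached the lowest intact male, as was so for 4.08% of all probes. Up to 2 members passed without animal 9 or 11, and 7 with array weights, against 23.1% of all probes.

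Between intact females and males the difference furthest from 0 was that of Atp5c1, at -0.43 ± 0.16 (q = 0.1). Females 1 to 5 were at -0.45, -0.58, -0.96, -0.19 and -0.38, and males 8 to 12 at -0.06, -0.52, 0.17, 0.02 and -0.04, so that male 9 lay among the females. The gene has 4 probes, and they did not give 1 answer. A second variable probe gave -0.44 ± 0.16, and the other two gave -0.09 ± 0.09 and -0.12 ± 0.08.

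After ovariectomy no member could be separated from its level in intact females. In limma 0 passed, against 0.0339% of all probes, and at an unadjusted p under 0.05 there were 0 members either, against 5.05% of all probes. The extremes were Atp5c1 (0.32 ± 0.16) and Cox7b (-0.25 ± 0.17). Between ovx and castrated placebo livers 0 passed, against 0.0679% of all probes, with 1 higher and 1 lower at an unadjusted p under 0.05, against 5.42% of all probes in either direction. The lower was Cox7b (-0.46 ± 0.17, q = 0.721), at -0.14, -0.37, -0.06, -0.05 and 0.13 in ovx placebo animals 16 to 20, all below the castrated placebo males, as was so for 0.785% of all probes. In limma 0 members passed for the sex difference on E2 (2 at an unadjusted p under 0.05, against 7.15% of all probes) or on DHT (1, against 7.96%), where 0.136% and 0.0806% of all probes passed. The same held for ovx E2 against intact females (8 at an unadjusted p under 0.05, all lower, against 6.42%), where 1.89% passed. For gonadectomy by sex 0 members passed, against 4.40% of all probes, with 3 at an unadjusted p under 0.05, against 16.4%. For DHT by sex 0 members and 0 of all probes passed, with 2 members and 7.59% of all probes at an unadjusted p under 0.05.

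Within complex I, Ndufs1 and Ndufs4 moved together across livers (r = 0.828 over 40 arrays) and apart from most other members. Ndufs1 was at -0.37, -0.30, 0.14, -0.03 and -0.26 in ovx placebo, 0.08, -0.16, -0.05, -0.56 and -0.61 in ovx E2 and 0.27, -0.05, 0.27, 0.50 and 0.42 in ovx DHT livers. The DHT livers lay highest, with animal 51 within the range of both other groups. Ndufs4, whose loss is known to impair complex I, was at -0.24, -0.27, 0.08, -0.11 and -0.16, then -0.09, -0.03, 0.02, -0.44 and -0.28, then 0.13, -0.10, 0.33, 0.17 and 0.42 in the same groups. In these females the difference of E2 from DHT livers was -0.54 ± 0.18 in Ndufs1 and -0.35 ± 0.11 in Ndufs4, and neither passed (q = 0.0835 and q = 0.0615). Males did not show the higher Ndufs1 with DHT. Castrated DHT animals 59 to 63 were at -0.27, -0.42, -0.40, -0.28 and 0.47. Castrated placebo animals 24 to 28 were at -0.34, -0.07, -0.33, 0.27 and 0.33. The Ndufs1 response to DHT was 0.60 higher in females than in males, the largest such difference of the members, and did not pass. Ndufv1, which holds the flavin that takes electrons from NADH, was at -0.03, 0.02, -0.48, -0.19 and -0.26 in ovx E2 animals 33 to 37 and between -0.10 and 0.08 in ovx placebo livers.

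In complex IV, liver-type and muscle-type isoforms can be set side by side for 3 subunits. With E2 in females the differences were -0.26 ± 0.16 for Cox6a1 and -0.05 ± 0.11 for its muscle type Cox6a2, -0.20 ± 0.11 for Cox7a2 and -0.17 ± 0.10 for Cox7a1, and -0.20 ± 0.10 for Cox8a and -0.06 ± 0.08 for Cox8b. In males they were -0.22 ± 0.16 and -0.16 ± 0.11, -0.05 ± 0.11 and -0.11 ± 0.10, and -0.19 ± 0.10 and -0.05 ± 0.08. None of the 6 passed in either sex, and the differences between isoforms were not tested. Over the 40 livers the isoforms of a pair correlated at r = 0.413 for 6a, 0.0143 for 7a and 0.307 for 8, and Cox4i1 and its lung isoform Cox4i2 at 0.617. Ratios to a pool do not show whether the muscle, lung and testis isoforms were expressed above background in liver. Their differences and correlations may therefore not reflect RNA of these genes, and they count among the 13 genes of complex IV. Of striated muscle, 8 of 12 listed markers were measured, and their median ran from -0.11 to 0.20 over the livers. Cox6b2, known from testis, had its highest value in ovx DHT animal 51 (0.55).

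In complex V the alpha and beta subunits, Atp5a1 and Atp5b, correlated at r = 0.939 over 40 arrays. Their probes held the same value in several livers, such as -0.2852 in castrated DHT animal 59 and 0.141 in animal 61. With such ties this r may not show how the RNAs of both genes moved together. The cause of the ties was not tested. Atp5c1 did not follow the other members (r = -0.00588 with their median). Castrated placebo animal 27 was at -0.45 for Atp5a1 and -0.47 for Atp5b, while animal 24 was at 0.39 and 0.35. Atp5h, a stalk subunit, differed by -0.01 ± 0.11 with E2 in both females and males.

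Across the 40 livers the members as a set co-varied. The median pairwise correlation was 0.276, against -0.00205 over all named genes, and 0.294 after group means were subtracted. It was 0.478 within complex IV, 0.512 within complex V, 0.188 within complex I and 0.0548 among those that are no subunits. Correlations with the median of the other 39 members were highest for Cox5b (0.917), Atp5e (0.876) and Cox8a (0.857) and lowest for Cox7a2l (-0.314), Ndufs1 (-0.27) and Ndufa13 (-0.245). These are descriptions over livers that share 1 pool and 1 normalization, with no test.

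Other mitochondrial genes were read from lists. For E2 in females 0.632% of all probes passed and 10.8% had an unadjusted p under 0.05. For E2 in females the median difference was -0.02 over 30 genes of the mitochondrial ribosome, 0.01 over 15 assembly factors and -0.07 over 9 genes of the citric acid cycle, with 0 passing in any of the 3 in limma and 1, 1 and 2 at an unadjusted p under 0.05. Over 41 genes of the cytosolic ribosome it was 0.00 and over 30 of the proteasome 0.10, with 0 passing in either and 1 and 5 at an unadjusted p under 0.05, all higher. Of 5 measured genes that feed or carry electrons to the chain, 1 passed in females and 2 were lower at an unadjusted p under 0.05. The one that passed, Gpd2, the mitochondrial glycerol phosphate dehydrogenase, fell with E2 by 1.08 ± 0.16 in females (q = 0.000564) and by 0.96 ± 0.16 in males (q = 0.00269). Of 15 regulators of mitochondrial biogenesis 2 passed in females: Ppara, the fatty-acid receptor, fell by 0.67 ± 0.16 (q = 0.0421) and Twnk, the mitochondrial helicase, rose by 0.65 ± 0.16 (q = 0.039). The differences of Ppargc1a (-0.30 ± 0.31), Esrra (-0.25 ± 0.14), Nrf1 (0.08 ± 0.08), Gabpa (0.17 ± 0.09) and Tfam (-0.16 ± 0.10) did not pass.

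After castration, where 5.20% of all probes passed as higher and 6.92% as lower, the assembly factor list had 3 of 15 genes that passed, all lower. They were Ndufaf1, Ndufaf2 and Cox15 (-0.41 ± 0.07, q = 0.000181), which acts in the synthesis of the heme of complex IV. Atpif1, the inhibitor of complex V, rose by 0.27 ± 0.09 (q = 0.0479), beside Atp5g1. Mdh2 of the citric acid cycle rose by 0.98 ± 0.14 (q = 7.23e-06), and Gabpb1, the partner of GABPA, fell by 0.28 ± 0.07 (q = 0.00674). Atpif1, Mdh2 and Gabpb1 are single genes of their lists. How many genes of each list passed is not given here, so they do not describe the lists as a whole. In the mitochondrial ribosome 1 gene of 30 was higher (Mrpl23, 0.30 ± 0.10, q = 0.0381) and 1 lower (Mrpl48, -0.39 ± 0.08, q = 0.00109).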

How the data were processed

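Liver RNA of 40 mice was labelled with Cy5 and hybridised on 1 two-colour array each against a Cy3-labelled pool of liver from 40 mice. The labels' protocols name RNeasy columns with DNase and automated aminoallyl MessageAmp II labelling. The authors deposited 1 table of log10 ratios of liver over pool for 23574 probes, with values limited to 2 and -2. The background correction and normalization are not given in the sources used here. The log base was read from the values, and log10 ratios were converted to log2. Of the probes, 13665 carry 1 symbol and 12662 were named through the mouse gene table. For genes with several probes, the probe of largest SD over the 40 arrays was used. limma 3.58.1 in R 4.3.3 fitted 8 group means to all 40 arrays (lmFit, eBayes), with 17 two-sided contrasts and an F test, each adjusted by Benjamini-Hochberg over all probes at 0.05. The script was tested on simulated data. Of genes changed by 0.25, 0.5 and 1 on the log2 scale it recovered 14%, 76% and 96% for estradiol in females. For castration it recovered 26%, 72% and 98%. The simulated noise was independent between probes and had the same SD in all groups, and 50 probes were changed at each size. Real groups spread unequally, members co-varied and castration changed more probes, so recovery in the real data may differ. Alternatives were normalization, centring, array weights, the groups in the fit, robust eBayes, a covariate, the probes used and leaving out each animal. Depth does not apply to arrays, and 5 animals a group limit the precision. Named genes were members that passed a test, the 10 of smallest F test p, tissue isoforms, those of extreme SD or difference, those that are no subunits, and the leading genes of each list. Ndufs8, Ndufb6 and other members outside these rules were named after their values were seen. Members, lists and tests were chosen with earlier results of these data known.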

Additional observations from a re-analysis of the deposited data

Results flagged for a closer look

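Of 320 pairs of a member and a group, 22 (6.88%) had 1 liver far from the other 4, by a gap that chance gives in about 1 in 20 groups of this size. In intact male 9, Cox7a2 (0.85) and Cox7b (0.85) lay far above the other intact males, and both are subunits of complex IV. In intact male 11, Ndufs4 (-0.16) lay far below and Ndufs8 (0.29) far above the others. In intact female 3, Cox5a (0.22) and Cox6a1 (0.36) lay high and Ndufs6 (-0.20) low, and in intact female 4 Cox6b2 (0.14) lay high.

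Among ovx E2 livers, animal 34 was high for Cox4i2 (0.30) and low for Ndufa13 (-0.29), animal 35 was low for Ndufaf3 (-0.11), animal 36 low for Ndufb6 (-0.43) and animal 37 high for Ndufaf2 (0.19). Among castrated E2 livers, animal 41 was low for Ndufaf2 (-0.21), animal 43 low for Ndufa13 (-0.55) and animal 45 high for Ndufs8 (0.46). In castrated placebo males, animal 25 was high for Atp5h (0.22) and animal 26 for Ndufa1 (0.38). On DHT, castrated animal 61 was high for Ndufa4l2 (0.12) and low for Ndufaf1 (-0.24), castrated animal 63 was high for Ndufs1 (0.47), and ovx animal 53 was high for Cox7a2l (0.27).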

How the results depend on the processing

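Of 867 medians of the members recomputed under the alternatives, 863 moved by less than the spread between animals (SD 0.096), and no called value changed sign. Many of the 867 could not move. Leaving out an animal of a group outside the contrast, or using robust eBayes, leaves the differences between group means as they were. The count of 863 is thus no measure of robustness. The other 4 moved with the macrophage marker median as a covariate, chosen after seeing the data: to 0.00264 for estradiol in females, 0.066 against DHT, 0.058 for the sex difference on estradiol and -0.00878 for ovx E2 against intact females. With it 0 members passed for estradiol against DHT in females, 1 in the F test, 1 between intact sexes and 1 for gonadectomy by sex. Array weights gave 7 members between intact sexes (23.1% of all probes) and 11 for castration (32.9%). For estradiol in females and males they gave 1 (4.63%) and 2 (3.19%), and for DHT 2 (5.51%) and 6 (16.1%). For estradiol against DHT they gave 8 (13%) and 4 (7.96%), and for sex on DHT 1 (5.56%). They gave 2 for ovx E2 against intact females (7.66%) and 8 for castrated DHT against intact males (26.4%). For gonadectomy by sex they gave 2 (12.8%), and in the F test 18, where 46.9% of all probes passed. Quantile normalization gave 1 for castration (7.64% of all probes), 5 for estradiol against DHT in females (5.15%) and 0 for castrated DHT against intact males (1.58%). Shares of all probes were computed only with array weights and with quantile normalization. A fit of the contrast's groups alone gave 0 for DHT in males, 0 for estradiol against DHT in females and 0 for castrated DHT against intact males. The interquartile range as a covariate gave 1 between intact sexes, 1 for estradiol against DHT in females, 0 for castrated DHT against intact males and 1 for gonadectomy by sex. Centring gave 1 for estradiol in males, and the subunits alone 2 for castration. The cause was not tested. Leaving out each animal gave 0 to 2 members between intact sexes (changed by animals 9 and 11), 1 to 5 for castration, 0 to 1 for estradiol in either sex, 0 to 2 for DHT in males, 0 to 6 for estradiol against DHT in females, 0 to 1 for ovx E2 against intact females (animal 34), castrated DHT against intact males and gonadectomy by sex (animals 1, 9, 11, 17, 20, 28, 43 and 61), and 2 to 7 in the F test. No paired analysis was possible because animal numbers are unique to each group.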
